A study of Mus musculus with 2 samples.

Results

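Toll-like receptors, the proteins that present bacterial lipopolysaccharide (LPS) to them, and the first kinases below them were followed here as 10 genes chosen by symbol from the 35129 in the files: Tlr2, Tlr3, Tlr4 and Tlr5 for receptors, Lbp, Cd14 and Ly96 for the LPS carrier and co-receptors, and Myd88, Irak1 and Irak2 for the adaptor and kinases. All 10 had a value in both libraries. RNA came from primary hepatocytes, liver cells freshly isolated from C57BL/6 mice, that had been infected with 1 of a pair of adenoviruses. One group, Ad-KLF14, received a virus that expresses the zinc finger transcription factor KLF14, and the other, Ad-GFP, a control virus whose label names GFP and which the design text calls an empty vector. Each group has 1 table of values, treated here as 1 library, although the design text speaks of triplicates, and also of retinal profiles. Age and sex of the mice and the time and dose of infection are not given in the sources used here. Cells of both groups carried an adenovirus, so levels without infection were not measured, and the preparation may hold other liver cells besides hepatocytes.

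A Toll-like receptor recognises a class of microbial molecule and passes the signal through adaptor proteins. TLR4 senses LPS of Gram-negative bacteria, TLR2 bacterial lipopeptides, TLR5 flagellin and TLR3 double-stranded RNA. LPS is first bound in plasma by the lipopolysaccharide-binding protein LBP, which hepatocytes secrete, is handed to CD14, and reaches TLR4 in complex with MD-2, the product of Ly96. The adaptor MyD88 then recruits IRAK kinases, which lead to NF-kB, whereas TLR3 signals through the adaptor TRIF. The liver receives gut-derived LPS with portal blood, and Kupffer cells, its resident macrophages, as well as hepatocytes take part in its clearance.

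Levels are FPKM, that is fragments per kilobase of gene model and 1000000 reads, as the authors deposited them. The 95% intervals cover counting error of the reads only. With 1 library a group there is no replicate and no test between the conditions, and each difference describes these libraries. Totals of 11151711 reads (Ad-KLF14) and 11311344 reads (Ad-GFP) were recovered from the values. Klf14 stood at 13164 FPKM with Ad-KLF14 and at 0.298 FPKM from 5 reads with Ad-GFP, as the labels say, and took 1.95% of the Ad-KLF14 reads. All 13 hepatocyte markers listed were above 1 FPKM, with albumin, Alb, at 4172 FPKM with Ad-KLF14 and 5115 FPKM with Ad-GFP, the order in which values are given from here on. The comparison on log2(FPKM + 1) used the 12419 genes whose values averaged 1 FPKM or more, and their median difference, Ad-KLF14 minus Ad-GFP, was -0.03. Of the 13 hepatocyte markers, 8 lay below and 5 above 0, beside 51.7% of all genes below 0, with a median of -0.18. The widest differences among them were in Tat, Cps1, Fgb and Trf, with FPKM ratios, Ad-KLF14 over Ad-GFP, of 1.68, 0.571, 0.697 and 0.764. Whether a lower level reflects fewer cells of a type or less RNA per cell cannot be told apart in such bulk RNA.

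Lbp was the member with the widest difference, Tlr2, Tlr3, Irak1, Cd14, Irak2 and Tlr4 were moderately lower with Ad-KLF14, and Ly96 and Myd88 were nearly level. Of the 9 members with a mean of at least 1 FPKM, 1 (Lbp) was at least 2-fold lower on log2(FPKM + 1), beside 8.99% of all genes compared, and 0 were at least 2-fold higher, beside 6.37%. At 1.5-fold, 3 members (Lbp, Tlr2 and Irak1) were lower, beside 20.9% of all genes, and 0 were higher, beside 16.7%. All 9 had a log2 difference below 0, beside 51.7% of all genes, but Ly96 and Myd88 only by -0.03 each, and scaling the libraries to a trimmed mean of log ratios put both marginally above 0, as did leaving the Klf14 reads out of the total for Myd88. The median of the 9 was -0.49. Counting error separated the libraries in 7 members, whose interval of the FPKM ratio lay wholly below 1, and such an interval was found for 37.5% of all genes compared and one wholly above 1 for 33.6%. Tlr5, the tenth member, had a mean under 1 FPKM and is described by its values alone.

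**Figure D1:**
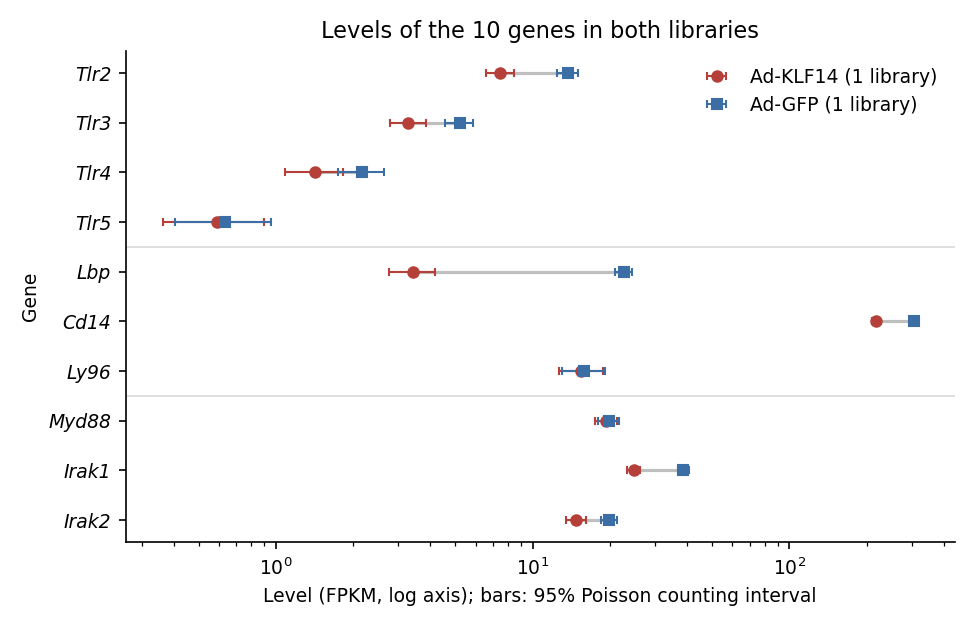
Level of each of the 10 genes (FPKM, log axis) in the Ad-KLF14 library (red circles) and the Ad-GFP library (blue squares), with 95% Poisson counting intervals as bars and grey lines that join the values of a gene. Cd14 lies far to the right of the others in both libraries, Lbp has the longest join, from 3.41 to 22.6 FPKM, and the points of Ly96, Myd88 and Tlr5 nearly coincide.

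Levels per length spanned a wide range within the set. Cd14, the membrane-anchored LPS co-receptor, was the most abundant member in both libraries and was higher than 98.6% (Ad-KLF14) and 99% (Ad-GFP) of the genes above 0. Irak1 came next, 8.79 times lower than Cd14 on FPKM with Ad-KLF14 and 7.92 times with Ad-GFP. Below it with Ad-KLF14 stood Myd88, Ly96 and Irak2, followed by Tlr2, then Lbp and Tlr3, then Tlr4 and Tlr5. In that library the counting intervals of Myd88 and Ly96, of Ly96 and Irak2, and of Lbp and Tlr3 overlapped, so the order within these pairs is open to counting error. The order with Ad-GFP was the same at both ends, but Lbp stood at place 3 there and at place 7 with Ad-KLF14. Between Lbp, Irak2, Myd88, Ly96 and Tlr2 in the Ad-GFP library each neighbour's interval overlapped the next.

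Among the receptors, Tlr2 was the most abundant and differed most. It was at 7.48 FPKM from 238 reads with Ad-KLF14 and at 13.7 FPKM from 443 reads with Ad-GFP. The intervals of these levels (6.56 to 8.49 and 12.5 to 15.1 FPKM) did not overlap, and the ratio was 0.545 (interval 0.464 to 0.639). On log2(FPKM + 1) the difference was -0.80, and 13.9% of the genes compared were more negative. Tlr3, the endosomal receptor for double-stranded RNA, was at 3.27 against 5.19 FPKM, from 158 and 254 reads. Its ratio of 0.631 (interval 0.514 to 0.773) was close to that of Tlr2. Tlr4, the LPS receptor itself, was low in both libraries, at 1.42 FPKM from 61 reads and 2.16 FPKM from 94 reads. Its ratio of 0.658 had a wider interval, 0.469 to 0.918, and the intervals of the levels overlapped, which for Tlr4 makes the size of the difference uncertain at this depth. The flagellin receptor Tlr5 was at 0.589 FPKM from 21 reads and 0.636 FPKM from 23 reads. For Tlr5 the ratio of 0.926 had an interval from 0.488 to 1.75, and with so few reads no difference could be detected.

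None of the other 8 mouse Toll-like receptors listed reached a mean of 1 FPKM. Together they summed to 2.41 FPKM with Ad-KLF14 and 2.04 FPKM with Ad-GFP, from 58 and 51 reads. The highest of them, Tlr13, was at 0.67 against 0.705 FPKM, and Tlr11 had no reads in either library. Tlr7 was at 0.574 FPKM from 12 reads and 0.378 FPKM from 8 reads, and its ratio of 1.52 had an interval from 0.572 to 4.29. On FPKM the transcripts of this receptor family were thus mostly those of Tlr2 and Tlr3 in these libraries. Tlr4, at 1.42 and 2.16 FPKM, was below the sum of these other 8 with Ad-KLF14 and near it with Ad-GFP.

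Lbp, Cd14 and Ly96, which deliver LPS to TLR4, went apart from each other. Lbp was at 3.41 FPKM from 96 reads with Ad-KLF14 and at 22.6 FPKM from 646 reads with Ad-GFP. The Ad-GFP level was 6.63 times the Ad-KLF14 level (interval 5.35 to 8.31), and with a log2 difference of -2.42 Lbp was the 46th most negative of the 12419 genes. Cd14 was at 217 FPKM from 3626 reads and 306 FPKM from 5179 reads. At that depth its ratio of 0.710 was tightly bounded (interval 0.680 to 0.741), although the log2 difference of -0.49 was exceeded downward by 25.2% of the genes compared. Ly96 was at 15.5 and 15.8 FPKM, from 104 and 108 reads. Its ratio of 0.977 (interval 0.739 to 1.29) held 1, so no difference could be told from counting error.

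The proportions among the LPS-handling transcripts differed most where Lbp was one of the pair. With Ad-KLF14 there were 2.40 times as many Lbp as Tlr4 transcripts on FPKM, and with Ad-GFP 10.5 times as many. For Cd14 the multiple of Tlr4 was 153 with Ad-KLF14 and 142 with Ad-GFP, and for Ly96 it was 10.9 and 7.33. Tlr4 rested on 61 and 94 reads, and its ratio interval (0.469 to 0.918) overlapped those of Cd14 and Ly96. A change in these last proportions could therefore not be told from counting error. Cd14 exceeded Lbp 63.7-fold with Ad-KLF14 and 13.5-fold with Ad-GFP.

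**Figure D2:**
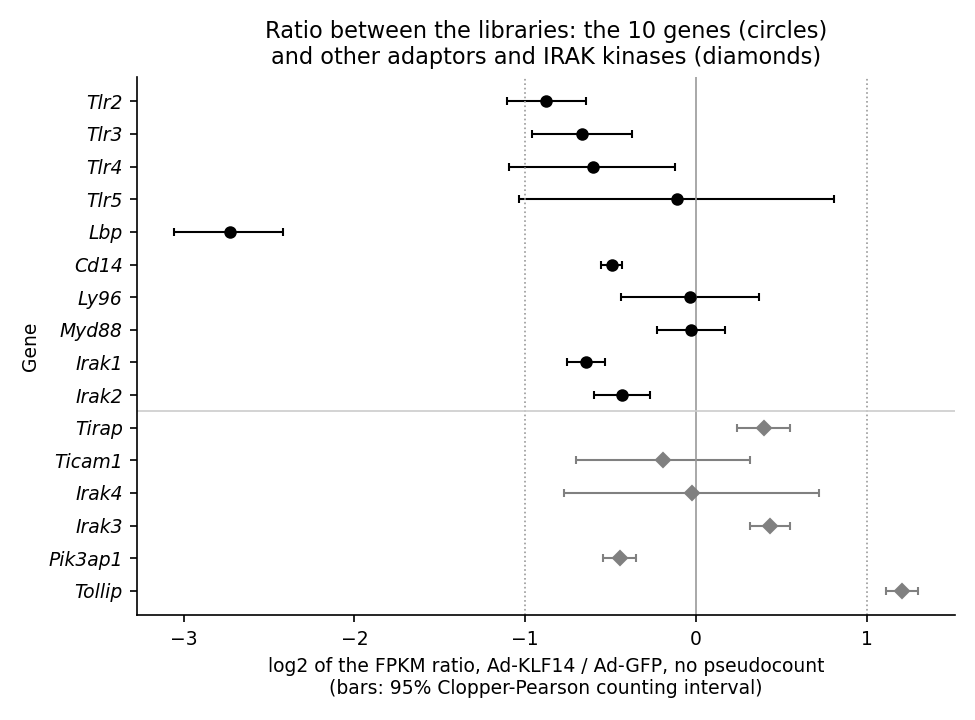
Log2 of the FPKM ratio, Ad-KLF14 over Ad-GFP and without a pseudocount, for the 10 genes (black circles) and the 6 other adaptors and IRAK kinases with a mean of at least 1 FPKM (grey diamonds). Bars are 95% counting intervals, the solid line marks equal levels and the dotted lines 2-fold; Lbp lies beyond the left dotted line and Tollip beyond the right, and the bars of Tlr5, Ly96, Myd88, Ticam1 and Irak4 cross the solid line.

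Downstream of the receptors, the adaptor Myd88 was level and the kinases Irak1 and Irak2 were lower. Myd88 was at 19.4 FPKM from 412 reads with Ad-KLF14 and 19.8 FPKM from 426 reads with Ad-GFP. Its ratio was 0.981 (interval 0.855 to 1.13). Irak1, the kinase that is phosphorylated by IRAK4 in the MyD88 complex, was at 24.7 FPKM from 1090 reads and 38.6 FPKM from 1728 reads. Its levels did not overlap within counting error, and the ratio was 0.640 (interval 0.593 to 0.691). Irak2, the related kinase that sustains the signal, was at 14.8 FPKM from 526 reads and 19.9 FPKM from 719 reads, a ratio of 0.742 (interval 0.662 to 0.832). With Ad-KLF14 the level of Irak1 was 1.27 times that of Myd88, and with Ad-GFP 1.95 times.

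The levels of Irak1 and Irak2 differed between the libraries, while that of Myd88, in the same signalling complex, was the same within counting error. KLF factors as a family bind GC-rich boxes. Whether KLF14 binds near these 3 genes, or whether such boxes bear on the levels, was not tested. The sequences before the start sites of Myd88, Irak1 and Irak2 are given as a description only. They are the 250 bases upstream of the RefSeq start on GRCm38.p6, a later build than the mm8 named for the files, read 5' to 3' on the gene's strand. Capitals mark every match, on either strand, to 6 motifs: the GC box GGGCGG, the CACCC box CCACCC, NF-kB written as GGGANTTNC, the interferon-stimulated response element written as GAAANNGAA, STAT written as TTCNNNGAA, and C/EBP written as TTGCNNAA.
Myd88 (chr9:119340019-119340268, minus strand): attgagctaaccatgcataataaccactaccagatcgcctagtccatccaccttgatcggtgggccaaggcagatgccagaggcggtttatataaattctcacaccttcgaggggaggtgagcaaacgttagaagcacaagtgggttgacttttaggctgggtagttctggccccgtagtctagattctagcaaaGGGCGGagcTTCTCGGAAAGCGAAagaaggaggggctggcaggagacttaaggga
Irak1 (chrX:74023922-74024171, minus strand): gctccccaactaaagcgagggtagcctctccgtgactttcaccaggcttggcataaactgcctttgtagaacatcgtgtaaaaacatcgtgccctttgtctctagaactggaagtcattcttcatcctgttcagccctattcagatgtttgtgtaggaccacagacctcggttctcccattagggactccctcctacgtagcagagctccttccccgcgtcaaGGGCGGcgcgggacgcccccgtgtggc
Irak2 (chr6:113638217-113638466, plus strand): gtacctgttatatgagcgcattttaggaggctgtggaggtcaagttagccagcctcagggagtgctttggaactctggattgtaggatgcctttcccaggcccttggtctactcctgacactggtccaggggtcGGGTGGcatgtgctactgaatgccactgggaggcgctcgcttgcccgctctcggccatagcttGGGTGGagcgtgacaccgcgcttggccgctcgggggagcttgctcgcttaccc

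Myd88 and Irak1 each held 1 GC box, which 32.7% of the 32851 RefSeq promoter windows hold in the same 250 bases. In Irak1 it lay from 27 to 22 bases before the start, and in Myd88 from 55 to 50 bases before it. Irak1 has a second listed start, from which the same box lay 30 to 25 bases away. The bases after the second start were found in a reference transcript of Irak1, and those after the printed start were not. Irak2 held 0 GC boxes and 2 CACCC boxes, seen here as GGGTGG on the printed strand, and 28.1% of the windows hold at least 1. Myd88 also held an interferon-stimulated response element (7.13% of windows) that overlaps a STAT match (7.02% of windows) in 3 bases, so the capitals run together there.

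For the receptors the table held Tlr2, Tlr3 and Tlr5, and for the other members none of Tlr4, Lbp, Cd14 and Ly96. Tlr2 and Tlr3 held an NF-kB match, which 3.54% of windows do, and that of Tlr2 also matches on the opposite strand, shifted by 1 base. Tlr5, Myd88, Irak1 and Irak2 held 0 NF-kB matches. Tlr2 and Tlr5 held 2 GC boxes each and Tlr3 none. Tlr3 also held a C/EBP match (9.56% of windows). The NF-kB matches are shown with 8 bases to each side and the match on the printed strand in capitals.
Tlr2 (chr3:83841764-83841788, minus strand): gacacctgGGGAATTCCcacacgga
Tlr3 (chr8:45410575-45410599, minus strand): ttgtttctGGGAGTTTCctgctttt
They lay from 172 to 164 bases before the start used for Tlr2 and from 211 to 203 bases before that of Tlr3. Both genes have a further annotated start upstream. A match is a description of letters and not a measured site, and a link between matches and levels was not tested.

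**Figure D3:**
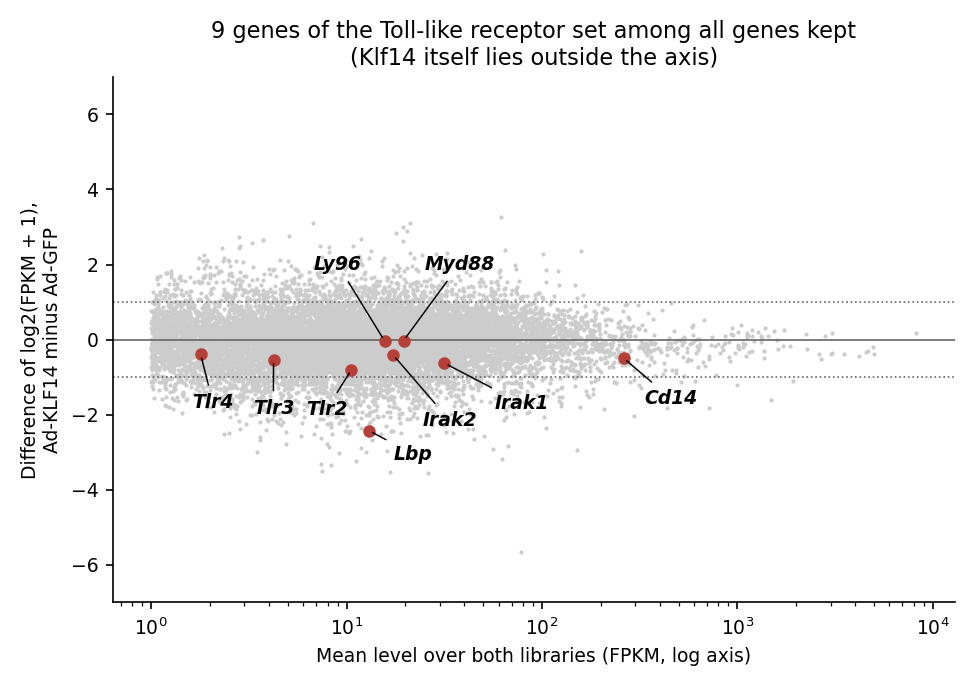
Mean level over both libraries (FPKM, log axis) against the difference of log2(FPKM + 1), Ad-KLF14 minus Ad-GFP, for all genes compared (grey) and the 9 members among them (red, named). Dotted lines mark 2-fold; Lbp lies below the lower line at -2.42, while the other 8 lie between -0.80 and -0.03, inside the grey cloud.

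The other adaptors and IRAK family kinases went in both directions. Of 8 listed, 6 reached a mean of 1 FPKM, with a median of 0.17. Of these, 3 lay above and 3 below 0, beside 51.7% of all genes below 0. Tollip, an adaptor that binds IRAK1 and dampens its activation, was at 75.5 FPKM from 3121 reads against 32.7 FPKM from 1372 reads. Its ratio of 2.31 (interval 2.16 to 2.46) made it the only one of the 6 at least 2-fold apart, beside 6.37% of all genes higher and 8.99% lower. Irak3, which encodes the inhibitory IRAK-M, was at 42.6 and 31.5 FPKM, which gave a ratio of 1.35 (interval 1.25 to 1.46). Tirap, which bridges TLR2 and TLR4 to MyD88, was at 14.5 and 11 FPKM and had a ratio of 1.32 (interval 1.18 to 1.47). Pik3ap1, an adaptor that links Toll-like receptors to PI3K, was lower, at 50.9 and 69.2 FPKM. Its ratio of 0.734 (interval 0.687 to 0.786) was near that of Irak2. Named after their values were seen, Irak4, the first kinase of the MyD88 complex, and Ticam1, which encodes TRIF, had ratios of 0.984 (interval 0.586 to 1.65) and 0.875 (interval 0.615 to 1.24). Within the IRAK family the lower genes were therefore Irak1 and Irak2, the higher one Irak3, and for Irak4 no difference was detectable from 32 and 33 recovered reads. The implied length of Irak4, 565, equals no transcript length, so its reads are minimum numbers and its interval may be too wide.

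Of 12 chaperones and accessory proteins of the receptors, 9 were compared. Of these, 7 lay on the negative side, beside 51.7% of all genes, and 2 on the positive, and the median was -0.34. On log2(FPKM + 1) 0 reached 2-fold, beside 8.99% of all genes lower and 6.37% higher. Unc93b1, which carries the endosomal receptors such as TLR3 to their compartment, was at 14.8 and 21.0 FPKM and had a ratio of 0.705 (interval 0.616 to 0.806). Rab10, a GTPase of TLR4 transport to the cell surface, had a ratio of 0.688, and the endolysosomal nuclease Pld3 one of 0.493. Cnpy4, a relative of the receptor chaperone gene Cnpy3, was higher, at 25.7 and 13 FPKM, with a ratio of 1.97 (interval 1.70 to 2.30).

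Further down, 23 of 24 genes found in the signalling list were compared. Of these, 15 lay above and 8 below 0, beside 51.7% of all genes below 0, and the median was 0.07. At least 2-fold lower were 2 of the 23, beside 8.99% of all genes. These 2 were Irf7, an interferon regulatory factor, at 54.8 against 158 FPKM (ratio 0.348, interval 0.325 to 0.372), and Tab3, which couples TRAF6 to the kinase TAK1, at 1.59 against 4.95 FPKM (ratio 0.322, interval 0.258 to 0.399). Tab2, the relative of Tab3, had a ratio of 0.609, and Ikbke, for the kinase IKK-epsilon, one of 0.565. None of the 23 was at least 2-fold higher, beside 6.37% of all genes.

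Of 12 inhibitors of the pathway, 11 were compared. The difference was negative in 9, beside 51.7% of all genes, and positive in 2, and the median was -0.39. On log2(FPKM + 1) 0 reached 2-fold, beside 8.99% of all genes lower and 6.37% higher. The interval of the ratio lay wholly below 1 in 6, beside 37.5% of all genes, and held 1 in 4. It lay wholly above 1, beside 33.6% of all genes, for Cyld, a deubiquitinase gene with a ratio of 1.39 (interval 1.21 to 1.59). Tnip1, which binds A20, had a ratio of 0.554 (interval 0.502 to 0.611), Trafd1 one of 0.578 and Tnfaip3, which encodes A20, one of 0.647. Socs1 was at 1.03 against 1.81 FPKM from 14 and 25 reads, and its interval of 0.273 to 1.14 held 1.

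The IL-1 family receptors share MyD88 and the IRAK kinases with the Toll-like receptors. Of 9 genes listed for them and their antagonists, 4 were compared and all 4 were below 0, beside 51.7% of all genes, with a median of -0.59. Il1rap, the accessory chain of the IL-1 receptor, was at 2.41 against 5.37 FPKM (ratio 0.449, interval 0.360 to 0.557), whereas Il1r1, the binding chain, was at 5.65 against 6.07 FPKM (ratio 0.931, interval 0.794 to 1.09). The secreted antagonists Il1rn and Il18bp had ratios of 0.597 and 0.718. Other genes of LPS binding, clearance and cytosolic sensing, 8 of 15 compared, had a median of -0.20, with Nod1, a sensor of peptidoglycan, at a ratio of 0.486, the pore-forming gasdermin gene Gsdmd at 0.797 and the phospholipid transfer protein Pltp at 1.76. In the same list Casp4, for the cytosolic LPS sensor, had 8 and 13 recovered reads, and the interval from them, 0.224 to 1.62, held 1. Its implied length of 358 equals no transcript length, so these reads are minimum numbers and the interval may be too wide.

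**Figure D4:**
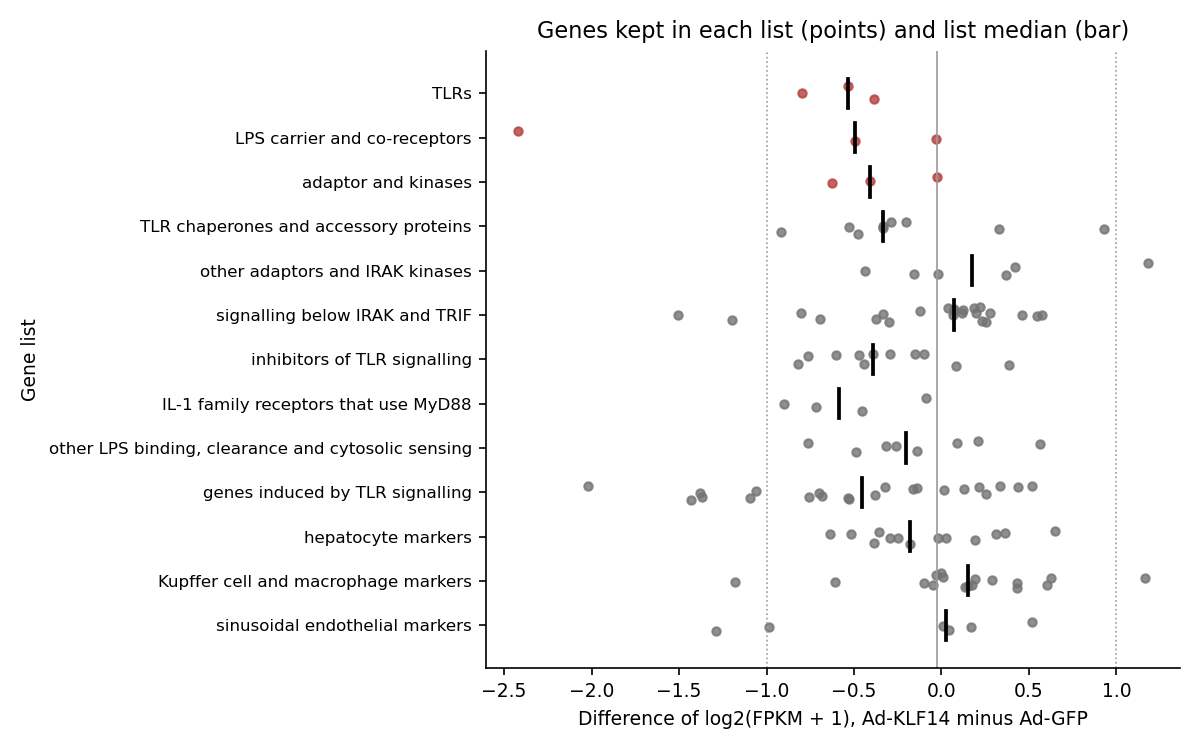
Difference of log2(FPKM + 1), Ad-KLF14 minus Ad-GFP, for each gene kept in the lists of the pathway and of cell type markers; points are genes, black bars list medians, the solid line is the median of all genes compared and dotted lines mark 2-fold. The 3 member groups in red have medians of -0.53, -0.49 and -0.41, the other adaptors and IRAK kinases one of 0.17 and the macrophage markers one of 0.15.

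Of 24 genes that Toll-like receptor signalling is known to induce, 22 were compared, and 15 lay below and 7 above 0 (median -0.45), beside 51.7% of all genes below 0. A 2-fold difference was reached downward by 6 of them, beside 8.99% of all genes, and upward by 0, beside 6.37%. Ccl2, which attracts monocytes, was at 116 against 476 FPKM, and the NF-kB genes Bcl3 and Nfkb2 and the chemokine Cxcl10 had ratios of 0.351, 0.369 and 0.385. The remaining 2 of the 6 were Saa3 and Relb, with ratios of 0.468 and 0.459. Icam1, an adhesion molecule named after its value was seen, was at 160 and 118 FPKM, with a ratio of 1.36 (interval 1.28 to 1.45).

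Macrophages also express Toll-like receptors, Cd14 and Myd88, so their markers are given beside the members. Of 25 symbols listed, 23 were in the files and 17 reached a mean of 1 FPKM. Of the 17, 11 had a positive and 6 a negative difference (median 0.15), beside 51.7% of all genes below 0. The sum of the 23 was 252 FPKM with Ad-KLF14 and 178 FPKM with Ad-GFP, and without Cd68 (160 against 71.1 FPKM) and Mpeg1 (17.1 against 40.1 FPKM) it was 75.0 against 66.9 FPKM. Lyz1, a near-copy of Lyz2, and Cd163 were under the filter, with no reads with Ad-GFP and only 1 and 3 reads with Ad-KLF14. None of the 23 was without reads with Ad-KLF14. Counting intervals of the ratio held 1 in 13 of the 17, beside 3588 of the 12418 genes with an interval. They lay wholly above 1 in 3 (Cd68, Emr1 and Fcgr1), beside 33.6% of all genes, and wholly below 1 in 1, Mpeg1, beside 37.5%. Fcgr1 had a ratio of 1.93 (interval 1.31 to 2.89). Some of the 13 had few reads, such as Aif1 with 7 and 16, so an interval that holds 1 can reflect low depth. Among Kupffer cell markers, Emr1 was at 4.09 against 2.78 FPKM. Vsig4 and Clec4f were under the filter, Vsig4 at 0.438 against 0.679 FPKM from 7 and 11 reads and Clec4f at 0.411 against 0.332 FPKM from 11 and 9 reads, and both intervals (0.212 to 1.82 and 0.467 to 3.38) held 1. The 12 endothelial markers summed to 14.6 and 18.9 FPKM. Of the 6 compared, 4 lay above and 2 below 0, beside 51.7% of all genes below 0, with a median of 0.02. Oit3 was 3.91-fold and Flt4 2.46-fold lower while Pecam1 was 1.81-fold higher (interval 1.23 to 2.71). The 7 cholangiocyte markers summed to 235 and 795 FPKM, of which Spp1 alone gave 191 and 681 FPKM. The other markers compared were also lower, Cldn4 at 40.8 and 107 FPKM (ratio 0.381) and Sox9 at 2.88 and 4.26 FPKM (ratio 0.675). Under the filter, Krt19 was at 0.196 and 1.74 FPKM from 3 and 27 reads (ratio 0.113, interval 0.0219 to 0.366). Epcam, also under the filter, had 3 and 2 reads, and its interval of 0.174 to 18.2 held 1. Krt7 and Cftr had no reads in either library. The 10 stellate cell and fibroblast markers summed to 3.50 and 3.72 FPKM, the 9 neutrophil markers in the files to 2.46 and 1.79 FPKM, and the 12 lymphocyte markers to 2.51 and 2.51 FPKM. The part of other cells in the values of the members was not tested.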

How the data were processed

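RNA sequencing of 2 libraries, 1 per group, was used. Trizol-extracted total RNA went into Illumina TruSeq libraries, per the labels' protocols. The submitters' processing notes name Bowtie 0.12.2 and mm8, while the design text names BWA, TopHat and Cufflinks, and which of these made the deposited values is not stated. Gene models, the counting rule and the handling of reads with several matches are not given in the sources used here. The authors deposited FPKM per gene symbol.

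Within a gene both values are whole reads divided by a length and a total. The smallest pair of whole reads with a whole length was found for 99.6% of the 19667 genes above 0 (relative tolerance 1e-12 for ratios, 1e-06 for lengths). Read numbers are therefore minimum values at the chosen totals. Where the true reads are a multiple of them, the intervals given are too wide. The totals were fixed up to a whole factor, chosen by exact matches to GENCODE M21 transcript lengths. Only 76 of 504 genes with equal reads matched at the chosen factor. The recovered reads sum to 101% and 103% of the totals. Smallest pairs can fall short of the true reads, so sums above the totals do not settle the factor. All read numbers and intervals rest on it. The implied lengths of Tlr5 (3199), Lbp (2525) and Irak2 (3196) equal a transcript length. Tested on simulated data for this comparison (14613 genes), both totals were recovered, 82.5% of read pairs were exact and 0% too high, and 97% of intervals held the true ratio. The simulated lengths were drawn from the same GENCODE transcripts that choose the factor, and the simulated reads were Poisson counts. The simulation therefore cannot test the choice of factor where real lengths match no transcript, nor any spread beyond counting. Simulated 3-fold higher genes were called at 2-fold in 95%, lower ones in 90%.

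Differences are of log2(FPKM + 1), which understates low genes, and ratios are of FPKM without the pseudocount. Ratio intervals are exact Clopper-Pearson and level intervals exact Poisson, at 95%. Reads carry no molecular identifiers, so these cover counting error only. Named genes are all members, up to 4 genes of each other list with the widest difference, and Klf14. Others (Alb, Tlr7, Tlr11, Tlr13, Irak4, Ticam1, Cyld, Saa3, Relb, Icam1, Emr1, Vsig4, Clec4f, Lyz1, Cd163, Krt19, Epcam, Krt7 and Cftr) were named after their values were seen. The members and lists were chosen with earlier results of these data known, so no list is independent evidence. Alternatives were pseudocounts of 0.1 and 5 FPKM, no filter or a mean of 5 FPKM, 3 scalings and thresholds of 1.5-fold and 3-fold. Promoters come from RefSeq on GRCm38.p6 and 6 of 10 members matched. Python 3.11.15 was used with numpy 2.4.6, pandas 2.3.3 and scipy 1.17.1.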

Additional observations from a re-analysis of the deposited data

How the results depend on the processing

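The median of the members lay between -0.57 and -0.33 under the 7 alternatives of pseudocount, filter and scaling, against -0.49. The count of 1 member at least 2-fold lower (Lbp) held under these and at 3-fold, and was 3 at 1.5-fold. The count of 0 members higher held under all 9. For all genes, a pseudocount of 5 FPKM gave 295 higher and 467 lower against 791 and 1117, a threshold of 1.5-fold gave 2079 and 2598, and 3-fold gave 180 and 299. Lbp ranged from -2.69 to -1.72, the latter with a pseudocount of 5 FPKM. Tlr2 ranged from -0.87 to -0.59, Irak1 from -0.64 to -0.55, which with a pseudocount of 5 FPKM was under 1.5-fold, and Cd14 from -0.49 to -0.45. Ly96 was at 0.005 and Myd88 at 0.01 when scaled to the trimmed mean of log ratios. The scalings shifted differences by 0.02 to 0.04. The macrophage median was -0.02 with a mean of at least 5 FPKM. With a pseudocount of 5 FPKM or a mean of at least 5 FPKM, 1 and not 2 genes of the signalling list were at least 2-fold lower. The inhibitors' median was -0.23 at a pseudocount of 5 FPKM, and the IL-1 family median was -0.09 without the filter. Of 532 further values of single genes and lists under the alternatives, 504 stayed within the counting interval, or a count within 1.5 times, 28 did not, and 0 called differences changed sign. No paired analysis was possible because each group holds 1 library. Depth limits Tlr5 and Tlr4 most, at 21 to 94 reads a library.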
